A study of Homo sapiens with 6 samples.

Results

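The genes of the ADAM, ADAMTS, ADAMTS-like, MMP and TIMP families were followed while human embryonic stem cells were turned into neural crest. Members were taken by symbol from the deposited gene table, which held 72 of them among 23284 genes: 22 ADAM, 19 ADAMTS, 5 ADAMTSL, 22 MMP and 4 TIMP genes. The cells were WA01, an established embryonic stem cell line (also known as H1) of wildtype genotype. The 6 libraries of poly-adenylated RNA form 3 groups of 2, labelled as ES cells on day 0, pre-neural crest cells (preNC) on day 3 and neural crest cells (NC) on day 5. Induction used the GSK3 inhibitor CHIR99021 at 3 µM in a medium with 2% B27 and 0.5% albumin on Matrigel, with the ROCK inhibitor Y-27632 at 10 µM early in culture. The protocol is listed alike for all 6 libraries, day 0 included, so it does not show which cells had received these agents. Matrigel is itself a basement membrane extract.

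ADAMs are membrane-anchored proteins, many of which cut the outer parts of receptors, ligands and cadherins from the cell surface. ADAMTS proteases are secreted and cut proteoglycans, procollagens and other matrix proteins, while ADAMTS-like proteins share their matrix-binding domains and lack the protease. Matrix metalloproteinases (MMPs) degrade collagens, laminins and other matrix, either as secreted enzymes or, in the membrane-type MMPs, while fixed to the cell surface. Tissue inhibitors of metalloproteinases (TIMPs) block them. In the embryo neural crest cells leave an epithelium and migrate through matrix, and proteases of these families are known to act in that passage.

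The table gives 1 FPKM value per gene and group (fragments per kilobase of transcript, scaled to the size of the library), with the libraries of a group combined. Values per library, and with them the spread between replicates, were therefore not available here, and library depth is unknown. A member counts as called, higher or lower, when its q in the authors' deposited table is below 0.05, and as tested when its status there is OK. Errors printed with ± are log2 ratios of FPKM divided by the authors' test statistic. Nothing says whether the 2 libraries of a group came from separate cultures, so these errors may be technical. The labels were checked against marker genes. In FPKM, the sum of 6 ES cell markers was 2344, 1045 and 601 on days 0, 3 and 5, and that of 8 neural crest markers 24.1, 21.9 and 179. Of the ES cell markers POU5F1 (1087, 85.3 and 9.40), NANOG (40.8, 0.659 and 0.615), TDGF1 (345, 0.573 and 0.389) and DPPA4 (272, 61.9 and 43.0) fell by day 3, whereas LIN28A and SOX2 were at 419 and 129 on day 5 and were not called against day 0. Of the neural crest markers PAX3 (0.253, 3.36 and 39.9), NR2F1, TFAP2A and SNAI2 were called higher in each comparison, and SOX10 stood at 1.82, 3.87 and 6.33. FOXD3, at 17.9, 0.876 and 15.4, was the only one of the 8 below its day 0 value on day 3.

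Of the 72 members, 41 reached an FPKM of at least 1 on some day and 28 were called in at least 1 comparison. Another 23 were tested in no comparison, and none of these exceeded 0.200. Together the members summed to 359, 314 and 350 FPKM on the 3 days. TIMP1 held the highest value on each day, as the plot of levels by day shows.

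**Figure D1:**
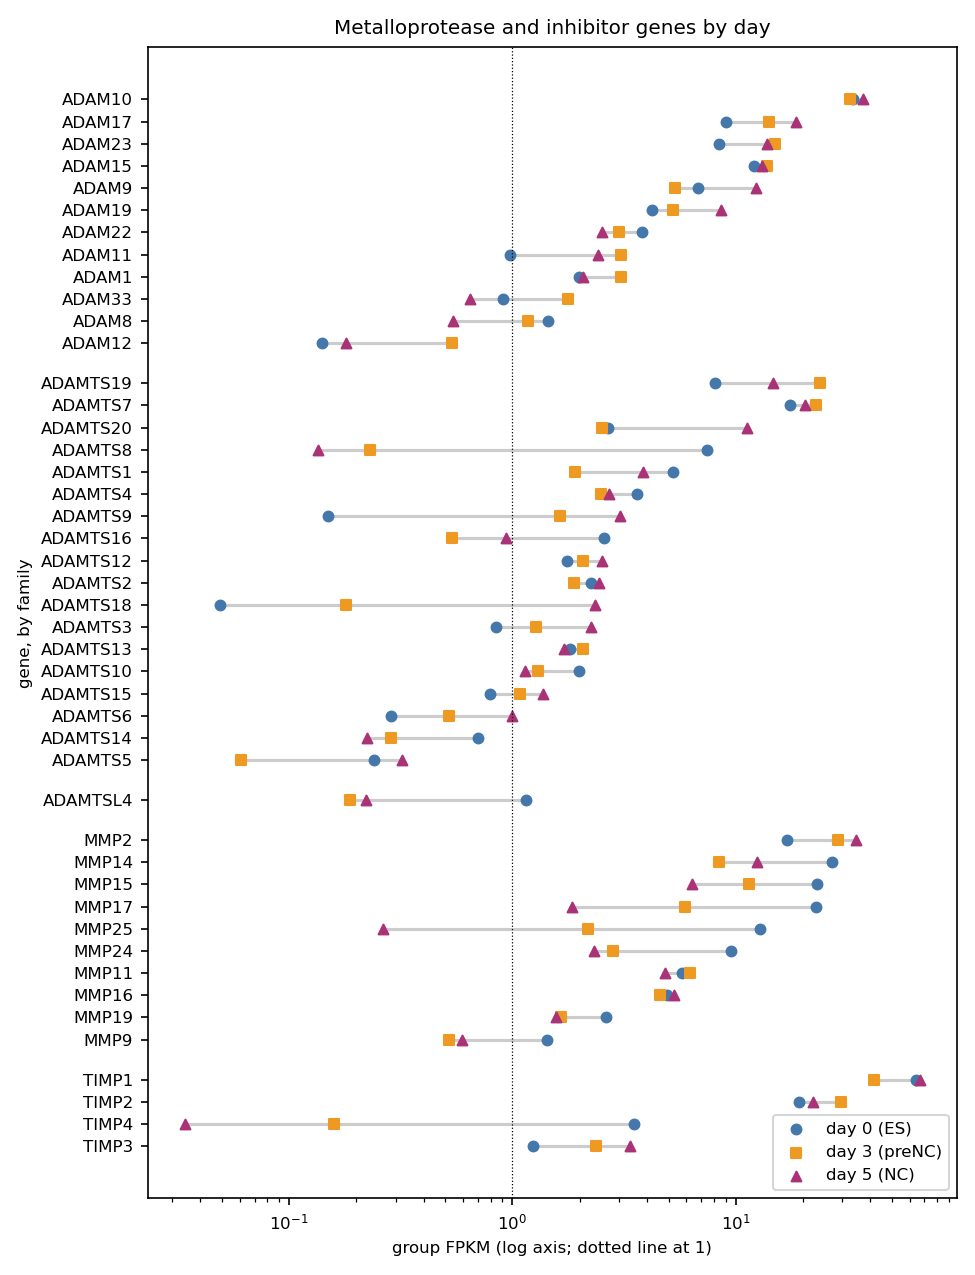
Group FPKM (log axis) of the 45 members that were called or reached an FPKM of at least 1, by family, with 1 symbol per day and a grey bar from the lowest to the highest. ADAM10 keeps nearly the same value on all days, whereas ADAMTS8, MMP25 and TIMP4 spread to the left after day 0 and ADAMTS9 and ADAMTS18 to the right.

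From day 0 to day 3, 6 members were called higher and 11 lower of 47 tested. Over all genes 20.6% of those tested were called in this comparison, 8.96% higher and 11.6% lower. From day 3 to day 5, 6 were higher and 5 lower of 45, against 12.6% of all genes called (5.93% higher and 6.68% lower). Between day 0 and day 5, 12 were higher and 10 lower of 48, against 27% of all genes (12.2% higher and 14.7% lower). In percent of those tested, 36.2%, 24.4% and 45.8% of the members were called. The median log2 ratio of FPKM plus 1 over tested members was -0.09, 0.10 and 0.08 in the 3 comparisons, beside 0.03, -0.04 and -0.01 over all tested genes. The members were called in both directions in every comparison. The 3 comparisons share libraries, so their calls are not independent of each other.

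**Figure D2:**
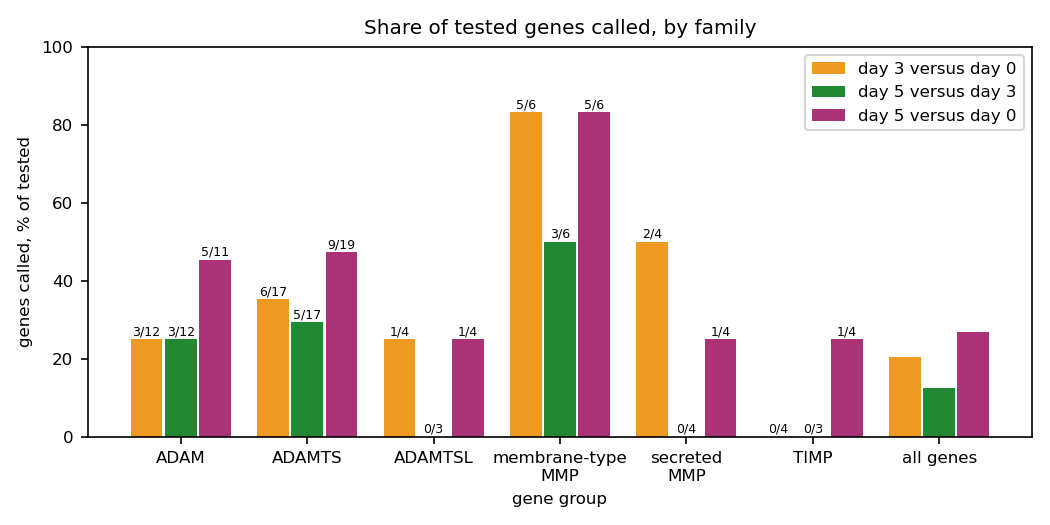
Percent of tested genes called in each comparison, for the families and for all genes, with the number called over the number tested above the bars of each family. The membrane-type MMPs have the tallest bars (5 of 6 called on day 3 and on day 5 against day 0). Of all genes 20.6% and 27% were called in these comparisons. No TIMP, of at most 4 tested, was called before the comparison of day 5 with day 0.

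Membrane-type MMPs fell during induction in 5 of 6 members by day 3, against 11.6% of all tested genes called lower, and none rose. Their summed FPKM went from 100.2 to 35.4 and 28.5 over the 3 days. MMP14 (chromosome 14, 23305793 to 23316803 in hg19), the collagenase at the front of invading cells that also activates MMP2, was the highest of them on day 0. Its 3 values were 26.9, 8.41 and 12.5. Its fall by day 3 was 3.20-fold (log2 -1.68 ± 0.33), and the later step (0.57 ± 0.36) was not called. MMP15 (chromosome 16, 58059282 to 58080804), another transmembrane member, fell in both steps, from 23.1 to 11.5 to 6.35. MMP24, known from the nervous system, fell from 9.47 to 2.81 (log2 -1.75 ± 0.38) and was at 2.31 on day 5.

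The pair held by a lipid (GPI) anchor instead of a transmembrane segment had the largest falls of the membrane-type group. MMP25 (chromosome 16, 3096682 to 3110724), known from leukocytes, went from 12.8 to 2.18 to 0.263. That is a fall by 2.55 ± 0.34 and then by 3.05 ± 0.54 on the log2 scale, or 48.8-fold over the whole course (log2 -5.61 ± 0.50, and -3.45 with a pseudocount of 1). MMP17 (chromosome 12, 132312941 to 132336316) went from 22.9 to 5.93 to 1.84, 12.5-fold in all (log2 -3.64 ± 0.37). The falls of MMP25 and MMP17 were called in all 3 comparisons with q values from 0.000596 to 0.0011 in the authors' deposited table. MMP16 was the exception in the group. Its values of 4.93, 4.59 and 5.26 differed by less than the implied error (log2 -0.10 ± 0.46 by day 3), and on day 3 it lay above MMP24 and MMP25. Whether the log2 ratio of MMP16 differed from those of the others was not tested.

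Among the 16 secreted MMPs the gelatinase MMP2 had the highest FPKM on each day. MMP2 (chromosome 16, 55513081 to 55540586), which cuts basement membrane collagen, was at 16.9, 28.8 and 34.5. It was called higher by day 3 (log2 0.77 ± 0.39) and over the whole course (1.03 ± 0.40), with q values of 0.0271 and 0.00283 in the authors' deposited table. The step from day 3 to day 5 was not called (0.26 ± 0.35). Of the summed FPKM of all MMPs it held 13.3%, 39.5% and 49.2% on the 3 days, while the share of the membrane-type members went from 78.9% to 48.6% and 40.6%. MMP9, the other gelatinase, fell from 1.43 to 0.518 by day 3 and was at 0.593 on day 5. MMP11, a furin-activated protease, stood at 5.75, 6.27 and 4.84 without a call. MMP19 (2.63, 1.65 and 1.57) was not called either, and its locus in the table also holds DNAJC14, ORMDL2 and TMEM198B.

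**Figure D3:**
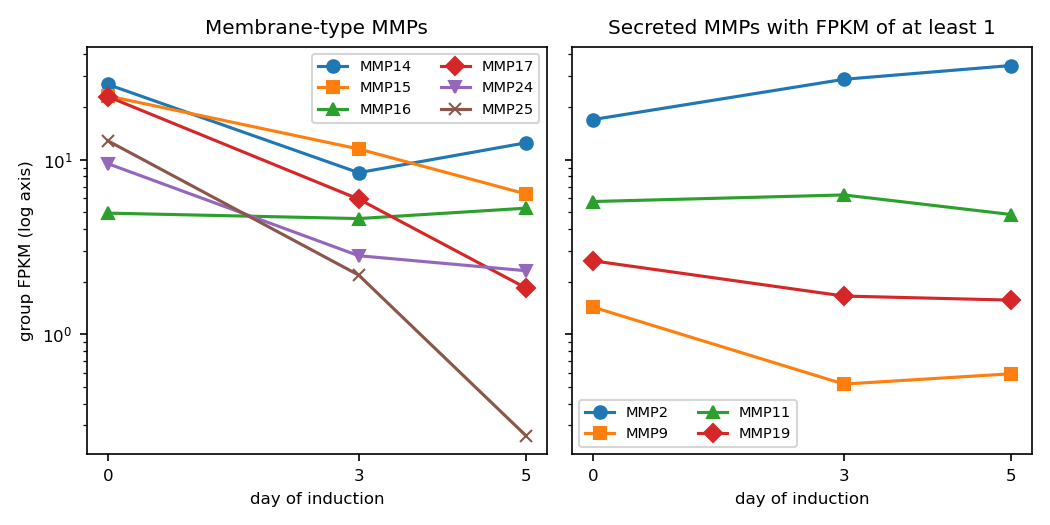
Group FPKM (log axis) against the day of induction, for the 6 membrane-type MMPs (left) and the 4 secreted MMPs that reached an FPKM of at least 1 (right). All membrane-type members except MMP16 end below their day 0 value, MMP25 at 0.263, whereas MMP2 ends at 34.5.

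The remaining 12 MMPs were tested in no comparison, and 4 of them (MMP12, MMP20, MMP26 and MMP27) were listed at 0 on all days. The collagenases MMP1, MMP8 and MMP13, the stromelysins MMP3 and MMP10 and the matrilysin MMP7 all lay at or below 0.0659, the day 0 value of MMP10. These 6, with MMP12, MMP20 and MMP27, form a block of 9 MMP genes over 435 kb of chromosome 11 (102391239 to 102826463 in hg19). No member of that block exceeded 0.0659 on any day. At such values the table cannot show a difference, and with the depth unknown no limit can be set.

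Promoters of the block near 0 and of membrane-type genes that fell differ in base composition, and 5 are shown for that contrast. RefSeq sequences of GRCh38.p14 were found for 43 of the 72 members, among them 5 of the 9 block genes and 3 of the 6 membrane-type genes. None was found for MMP17 and MMP25, which had the largest falls, or for MMP16, which was not called. Within the 250 bases before the gene start, G and C made up 32.8% to 41.6% of the block promoters and 56.8% to 77.6% of the membrane-type ones. Capitals mark every match, on either strand, to the AP-1 motif TGANTCA, the TATA box TATAAA and the GC box GGGCGG, the letters bound by SP1. Each sequence runs 5′ to 3′ on the strand of its gene.
MMP7, chr11:102530748-102530997 (minus strand): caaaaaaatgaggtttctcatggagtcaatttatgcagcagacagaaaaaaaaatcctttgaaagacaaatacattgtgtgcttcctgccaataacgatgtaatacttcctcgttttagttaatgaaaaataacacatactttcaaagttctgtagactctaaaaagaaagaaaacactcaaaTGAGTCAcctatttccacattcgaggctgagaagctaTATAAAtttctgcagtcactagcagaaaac
MMP10, chr11:102780629-102780878 (minus strand): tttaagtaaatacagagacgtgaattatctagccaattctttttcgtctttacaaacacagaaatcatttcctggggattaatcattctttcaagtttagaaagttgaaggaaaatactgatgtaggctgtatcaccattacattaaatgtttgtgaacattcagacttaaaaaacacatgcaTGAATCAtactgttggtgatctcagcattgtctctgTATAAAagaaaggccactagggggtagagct
MMP14, chr14:22836335-22836584 (plus strand): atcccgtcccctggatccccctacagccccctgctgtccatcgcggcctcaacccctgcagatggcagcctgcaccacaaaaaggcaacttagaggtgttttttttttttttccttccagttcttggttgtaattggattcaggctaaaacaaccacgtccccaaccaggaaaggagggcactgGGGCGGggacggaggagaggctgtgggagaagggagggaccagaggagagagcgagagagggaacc
MMP15, chr16:58025504-58025753 (plus strand): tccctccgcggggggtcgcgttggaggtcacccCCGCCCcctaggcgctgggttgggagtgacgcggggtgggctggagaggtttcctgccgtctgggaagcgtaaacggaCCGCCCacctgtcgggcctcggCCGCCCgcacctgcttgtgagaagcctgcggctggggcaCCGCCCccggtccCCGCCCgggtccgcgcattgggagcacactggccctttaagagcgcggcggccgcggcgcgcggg
MMP24, chr20:35226440-35226689 (plus strand): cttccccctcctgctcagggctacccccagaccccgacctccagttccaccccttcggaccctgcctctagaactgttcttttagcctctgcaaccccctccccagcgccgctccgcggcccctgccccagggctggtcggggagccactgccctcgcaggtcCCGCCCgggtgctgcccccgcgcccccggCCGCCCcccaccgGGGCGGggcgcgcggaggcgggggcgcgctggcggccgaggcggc

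In MMP7 and MMP10 an AP-1 match lies shortly before a TATA box, and neither holds a GC box. MMP20 has the same pair of motifs, MMP8 has a TATA box alone, and MMP27 has none of these motifs. MMP14, MMP15 and MMP24 hold 1, 5 and 3 GC boxes and neither other motif. Of all 35116 promoters given by RefSeq, 6.57% hold the AP-1 letters, 10.7% the TATA box and 42.6% the GC box. The TCF/LEF letters CTTTGAT, searched because CHIR99021 acts through beta-catenin, were in none of the 44 member promoters and in 2.26% of all. With so low a share over all promoters, none in 44 cannot be set apart from it. Composition also differed between members by their level. Promoters of members at an FPKM of at least 1 had a median of 73.6% G and C (25 promoters), against 39.2% for members tested in no comparison (12 promoters). For all genes in the table the same medians were 64.4% (14490 promoters) and 49.6% (3606 promoters). The GC box was in 23 of those 25 member promoters, and in 63.0% of promoters of all genes at that level. Of the 12 promoters of members tested in no comparison, 6 held the TATA box and 3 the AP-1 letters. For all genes tested in no comparison these shares were 20.4% and 9.35%. A match to these letters describes the sequence and does not show that a factor binds there.

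Of the TIMPs, which inhibit the proteases above, 0 of 4 tested were called by day 3 and 0 of 3 from day 3 to day 5. Only TIMP3, 1 of 4, was called in the comparison of day 5 with day 0. Of all genes 20.6%, 12.6% and 27% were called in these comparisons, and so few TIMPs cannot be set apart from that background. TIMP1 was the most abundant of all 72 members, at 64.0, 41.5 and 67.0. Neither step was called (log2 -0.63 ± 0.61 and 0.69 ± 0.57). TIMP2, which links MMP14 to pro-MMP2 in the activation of that gelatinase, was at 19.2, 29.7 and 22.2, also without a call. TIMP3, which binds to matrix and also inhibits ADAM17 and several ADAMTS proteases, was at 1.24, 2.36 and 3.35. Over the whole course it was called higher (log2 1.43 ± 0.64), and the authors' deposited table gives a q of 0.0385.

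TIMP4 had the widest range of the TIMPs without a call. Its values were 3.49, 0.159 and 0.0340, a log2 ratio of -4.45 ± 1.86 by day 3, for which the authors' deposited table lists a q of 0.317. TIMP1, TIMP3 and TIMP4 each share their locus in the table with a synapsin gene (SYN1, SYN3 and SYN2), inside which they lie. SYN3 was at 6.66, 1.14 and 1.36 and was called lower on day 5 than on day 0, opposite to TIMP3. SYN2 was at 1.95, 1.22 and 1.43. SYN1 was at 4.68, 3.42 and 0.848, and the locus of TIMP1 also holds MIR4769 and ARAF (19.7, 18.9 and 17.5). Whether the overlap touches the values of TIMP1, TIMP3 and TIMP4 was not tested.

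Of the ADAM genes none was called lower by day 3 and 3 were called higher, ADAM11, ADAM23 and ADAM12, of 12 tested. Of all genes 20.6% were called in that comparison, so the share of ADAMs called in either direction (25%) was near the background. By direction, 25% of the tested ADAMs were called higher and 0% lower, against 8.96% and 11.6% of all genes. From day 3 to day 5, 3 of 12 ADAMs were called (25%, against 12.6% of all genes). Over the whole course 5 of 11 were called (45.5%, against 27%). Whether these shares differ from those of all genes was not tested. ADAM10, which sheds Notch, N-cadherin and ephrins, was the highest of the family, at 33.5, 32.4 and 37.2. Its 3 values differed by less than the implied error (log2 0.15 ± 0.40 from day 0 to day 5). ADAM17, which releases EGF receptor ligands and tumor necrosis factor, was at 9.04, 14.1 and 18.7 and was called over the whole course (log2 1.05 ± 0.41) but in neither step. ADAM19, known from heart and neural crest development, had a like course, at 4.21, 5.25 and 8.62 (log2 1.04 ± 0.41). ADAM9 was at 6.78 on day 0 and 5.35 on day 3, and rose to 12.4 on day 5 (log2 1.21 ± 0.45 in that step). ADAM15 stood at 12.1, 13.8 and 13.1 without a call, in a locus shared with the ephrin gene EFNA4 (17.9, 26.8 and 20.5).

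Of the 3 ADAMs called higher by day 3, ADAM11 and ADAM23 lack an active protease. ADAM11, ADAM22 and ADAM23 are brain proteins of this kind, of which ADAM22 and ADAM23 bind the secreted protein LGI1. ADAM11 rose from 0.978 to 3.07 (log2 1.65 ± 0.45) and remained at 2.41 on day 5. ADAM23 rose from 8.39 to 15.0 (0.84 ± 0.39) and was at 13.8 on day 5. ADAM22 went from 3.81 to 3.01 to 2.52 and was not called. ADAM12, a protease of muscle and mesenchyme, rose and fell again at a low level, from 0.141 to 0.535 to 0.181. ADAM33 was at 0.907, 1.78 and 0.647, with a fall between day 3 and day 5 (log2 -1.46 ± 0.55). ADAM8 fell from 1.44 on day 0 to 0.543 on day 5. ADAM1, a pseudogene in humans, was at 1.98, 3.05 and 2.07 without a call. The other 10 ADAMs were tested nowhere and lay at or below 0.200, among them the testis proteases and sperm proteins ADAM2, ADAM18, ADAM20, ADAM21, ADAM29 and ADAM30.

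The ADAMTS genes included called changes in both directions, with wide ratios where 1 of the values was near 0. Adding a pseudocount of 1 to FPKM brings the log2 ratios of day 5 against day 0 from -5.79 to -2.89 for ADAMTS8, from 5.57 to 1.67 for ADAMTS18 and from 4.34 to 1.81 for ADAMTS9, so the folds printed for these genes hold for raw FPKM only. By day 3 they counted 2 higher and 4 lower of 17 tested, and from day 3 to day 5 they counted 5 higher and 0 lower of 17. Over the whole course 6 were higher and 3 lower of 19. In the 3 comparisons 35.3%, 29.4% and 47.4% of the tested ADAMTS genes were called, against 20.6%, 12.6% and 27% of all genes.

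The hyalectanases cut versican and related proteoglycans, and versican is abundant along neural crest paths. Their 7 genes summed to 20.1, 9.91 and 22.6 FPKM, and the leading gene of the sum was not the same on day 0 as on day 5. ADAMTS8 (chromosome 11, 130274818 to 130298539) was the highest on day 0, at 7.41, and fell 32.2-fold to 0.230 on day 3 (log2 -5.01 ± 0.47) and to 0.134 on day 5. ADAMTS20 (chromosome 12, 43748012 to 43945724), whose loss in mice causes the belted coat through the death of pigment cell precursors, led the sum on day 5. It was at 2.67 and 2.51, on day 3 level with ADAMTS4 (2.48), and then rose to 11.2 (log2 2.16 ± 0.44), when it held 49.6% of the sum. ADAMTS9, its closest relative, rose in both steps, from 0.149 to 1.64 to 3.02, or 20.3-fold in all (log2 4.34 ± 0.62). The antisense gene ADAMTS9-AS2 shares that locus, at 0.0297, 0.199 and 0.370, and whether the counting used strand is not given in the sources used here.

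ADAMTS1, an inhibitor of vessel growth as well as a protease, fell from 5.24 to 1.90 by day 3 and rose to 3.84 by day 5 (log2 -1.46 ± 0.45 and 1.01 ± 0.45). ADAMTS5, the main cartilage aggrecanase, was far lower, at 0.240, 0.0610 and 0.320. It was not tested by day 3 and was called higher in the step to day 5. ADAMTS4 (3.60, 2.48 and 2.72) and ADAMTS15 (0.797, 1.08 and 1.37) were not called. Their substrate versican (VCAN) was at 46.9, 42.0 and 38.1 and was not called in any comparison. Of the hyalectanases only ADAMTS1 was called both lower by day 3 and higher in the next step. The summed mesenchymal markers were lowest on day 3. Their 7 genes summed to 59.1, 24.5 and 69.9, which was the course of COL1A1 (34.2, 7.74 and 19.8) and COL1A2 (24.1, 14.9 and 45.2). COL3A1 (0.0991, 0.956 and 2.38) was called higher in each comparison, LUM was at 0.0342, 0.226 and 0.573, DCN stayed at or below 0.0623, and 3 of the 7 stayed below 1 on all days. Their part in the course of these proteases was not tested, and in bulk RNA fewer cells of a type and less RNA per cell cannot be told apart.

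Outside the hyalectanases, ADAMTS18 and ADAMTS16, close relatives of each other, were called in opposite directions between day 0 and day 5. Each was also called in a single step, but not in the same one. ADAMTS18 (chromosome 16, 77316025 to 77469011) rose from 0.0492 on day 0 and 0.180 on day 3 to 2.33 on day 5. That is a log2 ratio of 3.69 ± 0.70 in the later step and 47.4-fold over the course. ADAMTS16 fell from 2.57 to 0.536 by day 3 (log2 -2.26 ± 0.51), a comparison in which ADAMTS18 was not tested. It stood at 0.937 on day 5, and that later step was not called (log2 0.81 ± 0.57). ADAMTS19, in which mutations cause heart valve disease, was the highest ADAMTS gene on day 3. It rose from 8.07 to 23.8 (log2 1.56 ± 0.40). The step from day 3 to 14.8 on day 5 was not called (the authors' deposited table lists a q of 0.0593). ADAMTS19 was still called higher on day 5 than on day 0 (log2 0.87 ± 0.40). ADAMTS6 went from 0.287 to 0.517 to 0.999 and was called over the whole course.

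Among the procollagen N-proteinases, which trim fibrillar collagens, the 3 genes had 3 different courses. ADAMTS2 was at 2.24, 1.89 and 2.45 without a call. ADAMTS3, which also activates the growth factor VEGFC, went from 0.848 to 1.28 to 2.24 and was called over the whole course (log2 1.40 ± 0.55). ADAMTS14 fell from 0.702 to 0.285 and 0.223. ADAMTS7, which cuts a cartilage matrix protein, was high and uncalled throughout, at 17.6, 22.8 and 20.5. ADAMTS12 (1.75, 2.06 and 2.52), ADAMTS10 (1.98, 1.31 and 1.14) and ADAMTS13, the protease of von Willebrand factor (1.80, 2.07 and 1.69), were not called. The last shares its locus with REXO4, which was at 25.7, 23.2 and 18.2. ADAMTS17, at or below 0.317, was tested in 2 comparisons without a call.

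**Figure D4:**
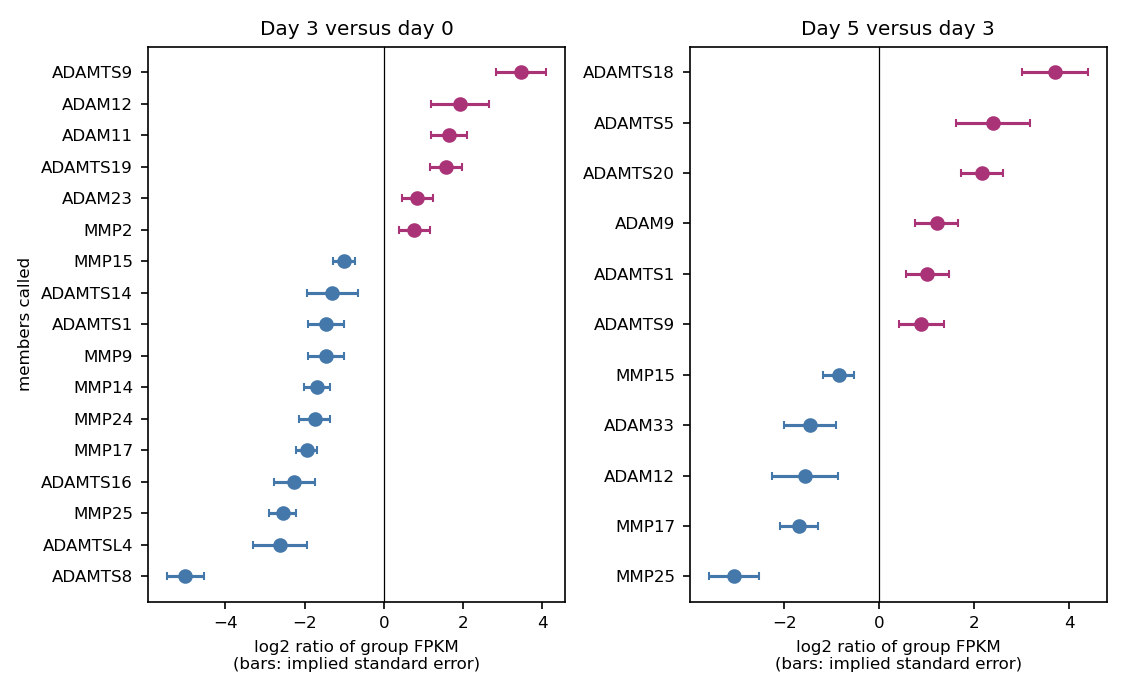
Log2 ratio of group FPKM for every member called between day 0 and day 3 (left, 17 genes) and between day 3 and day 5 (right, 11 genes), with bars for the implied standard error. ADAMTS8 lies farthest left at -5.01 on day 3, and ADAMTS18 (3.69) and MMP25 (-3.05) mark the ends on day 5.

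ADAMTS-like proteins organise fibrillin microfibrils, and their genes were weakly expressed, with a summed FPKM of 2.55, 1.70 and 2.11. ADAMTSL4, in which mutations displace the eye lens, fell from 1.15 to 0.187 by day 3 (log2 -2.62 ± 0.68, and -0.86 with a pseudocount of 1). It was at 0.221 on day 5. Its locus also holds the small RNA gene MIR4257, listed at 0 on days 0 and 3 and at 54.7 on day 5 without a call. By day 3 and over the whole course ADAMTSL4 was the only member called, 1 of 4 tested (25%, against 20.6% and 27% of all genes). From day 3 to day 5, 0 of 3 were called, against 12.6%. So few genes cannot be set apart from that background. ADAMTSL3 was tested in no comparison, and no member of the 5 other than ADAMTSL4 exceeded 0.850.

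Genes that control the activity of these proteases were read from a list of 25, of which 22 were tested. By day 3, 4 were higher and 6 lower, by day 5 against day 3 6 were higher and 1 lower, and over the course 2 were higher and 5 lower. That is 45.5%, 31.8% and 31.8% called, against 20.6%, 12.6% and 27% of all genes, so the share over the whole course was near the background. Medians over the list were -0.22, 0.06 and -0.04 on the log2 scale of FPKM plus 1, beside 0.03, -0.04 and -0.01 over all genes. FURIN, the proprotein convertase that activates membrane-type MMPs, MMP11 and many ADAMs, fell from 9.60 to 2.25 and rose to 4.90 (log2 -2.09 ± 0.37 and 1.12 ± 0.42). PCSK5, a related convertase, was at 4.05, 1.06 and 3.46, while PCSK6 rose from 0.476 to 2.27 and 2.74. PLAU, the urokinase that activates plasminogen, fell from 13.9 to 6.19 and rose to 16.9. PLAT, another plasminogen activator, was called higher by day 3 (1.51, 4.02 and 2.49). RHBDF1, an inactive rhomboid needed for ADAM17 traffic, went from 11.3 to 6.04 to 11.9 and THBS1 from 11.3 to 5.23 to 11.9, each called in both steps. PAPLN, a matrix protein with domains like those of the ADAMTS-like family, went the other way, from 6.30 to 21.9 to 3.09. Over the whole course RHBDF2 (7.26, 4.97 and 2.73) and TSPAN17 (29.3, 20.9 and 14.1) fell and TSPAN5 (9.22, 14.3 and 21.2) rose, all of them partners of ADAM17 or ADAM10. Both steps share the day 3 libraries. RECK and BSG, an inhibitor and an inducer of MMPs, were not called (2.85, 2.50 and 1.98 for RECK and 633, 525 and 518 for BSG).

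Known substrates were read from a second list of 37 genes, many of them chosen for roles in neural crest. By day 3, 16 were higher and 5 lower of 34 tested, by day 5 against day 3 11 were higher and 5 lower of 34, and over the course 19 were higher and 5 lower of 35. That is 61.8%, 47.1% and 68.6% called, against 20.6%, 12.6% and 27% of all genes. Since the list was chosen in this way, and with earlier results of these data known, the shares describe the list and not substrates in general. The median log2 ratios of FPKM plus 1 were 0.47, 0.21 and 0.82, against 0.03, -0.04 and -0.01 over all genes. CDH1, the epithelial cadherin cut by ADAM10, fell from 75.6 to 3.95 to 0.585. EFNB1, an ephrin, rose from 2.96 to 59.4 and fell to 34.0. CDH2, the cadherin that ADAM10 cuts in neural crest, rose from 15.8 to 101 and was at 157 on day 5, and CDH6 rose from 0.884 to 3.32 to 41.9. CDH11, a further crest cadherin, was at 1.70, 11.4 and 21.0, and NCAN, a proteoglycan of the versican family, at 1.23, 11.2 and 7.16, both called higher by day 3. BCAN, of the same proteoglycan family, fell by day 3 (2.16, 0.431 and 0.190), as did TGFA (0.819, 0.153 and 0.0990), SDC4 (26.0, 13.8 and 16.3) and COL1A1. COL2A1, a substrate of the procollagen N-proteinases, rose from 4.89 to 34.6 to 123. COL1A2 (24.1, 14.9 and 45.2) and FBN2, a fibrillin (5.73, 10.3 and 30.4), rose in the step to day 5. APP, PTK7 and L1CAM, which ADAMs or MMP14 cut, were not called.

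Some calls depend on the test. With a normal p computed from the authors' test statistic, the calls of ADAM12, ADAM23, ADAMTS14 and MMP2 by day 3 were lost. So were those of ADAM9, ADAM12, ADAM33, ADAMTS1, ADAMTS9 and MMP15 in the step to day 5. Over the whole course ADAM8, ADAM9, ADAM17, ADAM19, ADAMTS3, ADAMTS14, ADAMTS19, MMP2 and TIMP3 lost theirs. The calls of MMP14, MMP17, MMP24, MMP25, ADAMTS8, ADAMTS16, ADAMTS18 and ADAMTS20 were kept in each comparison in which they had been made.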

How the data were processed

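RNA of 6 libraries in 3 groups of 2 was measured. Tools listed in the submitters' processing notes are TopHat2 2.0.10, an unversioned TopHat and Cuffdiff 2.1.1, with the build hg19. Annotation, strandedness and filters: not given in the sources used here. The deposited table, in Cuffdiff's gene-level layout, gives per the file headers an FPKM value per gene and group, a test statistic (used as a score), a p-value and a q-value. No column of per-sample values was left unmapped, so the number of such columns is 0. Adjusting the deposited p-values by Benjamini-Hochberg over 48572 tested rows, all 3 comparisons together, gave the authors' q-values with a largest deviation of 5.25e-07. No p-value in the authors' deposited table is under 5e-05. Of the FPKM sum 27.0%, 25.9% and 21.9% on days 0, 3 and 5 lay in 3 small RNA genes.

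Computed here were log2 ratios of FPKM, implied standard errors (log2 ratio over test statistic), counts of calls, and list medians with a pseudocount of 1 (Python 3.11.15, pandas 2.3.3, scipy 1.17.1). The adjustment and the counting were tested on simulated data. Start positions were taken as counted from 0, since taking the end less the start gave the RefSeq gene length for 1901 genes, and adding 1 gave it for 253, and are printed counted from 1. Promoters are the 250 bases before the start in the RefSeq table of GRCh38.p14. The bases after the start were found in the gene's GENCODE transcripts for 36 of the 44 member promoters. No protein sequences were analysed here. Alternatives were another q threshold, adjustment, test, pseudocount, filter and scaling.

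Members that were called or reached an FPKM of 1 are named. Of the regulator and substrate lists, members with large called changes are named, and further ones (RECK, BSG, PLAT, VCAN, APP, PTK7, L1CAM, CDH11, BCAN, TGFA and SDC4) were added after their values were seen. An item of these lists is not reported here by name. Members and lists were chosen with earlier results of these data known.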

Additional observations from a re-analysis of the deposited data

How the results depend on the processing

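Leaving out a replicate was not possible, since each group is given as 1 combined value. No paired analysis was possible because the table carries no value per library. The depth is unknown, so low values have no limit. With the normal p of the test statistic, the members called higher were 3 by day 3, 3 from day 3 to day 5 and 5 over the course, and those lower from day 3 to day 5 were 2. The regulators called higher by day 3 were then 2 and those lower over the course 1. The substrates called lower were then 2 from day 3 to day 5 and 3 over the course. With a q below 0.01, 3 regulators were lower over the course, and 3 substrates were lower both from day 3 to day 5 and over the course. With a minimum of 2-fold, 3 substrates were lower in each of these comparisons. The cause was not tested, except that stricter rules keep fewer genes. Adjusting within each comparison added ADAMTSL5 by day 3 and ADAM23 over the course and lost ADAMTS9 from day 3 to day 5. Rescaling FPKM without the 3 small RNA genes shifted every log2 ratio by -0.01, 0.15 and 0.13 in the 3 comparisons, and the median of members from day 3 to day 5 then was 0.20. No called member changed its direction under the pseudocounts of 1 and 0.1, that rescaling or centring on the median of all genes. Over the counts and medians, 88 alternative values stayed close to the reported one and 14 moved. Among values of single members 40 moved, 20 calls were lost and 2 were gained. Of the moved ones 31 were log2 ratios with a pseudocount of 1, among them that of ADAMTS8 by day 3 (-2.77 in place of -5.01).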

Other observations

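Neighbouring members did not always share their course. ADAMTS8 and ADAMTS15 lie 20.3 kb apart on chromosome 11. ADAMTS8 went from 7.41 to 0.230 to 0.134, whereas ADAMTS15 was at 0.797, 1.08 and 1.37. ADAMTS1 and ADAMTS5 lie 72.5 kb apart on chromosome 21, and each had its lowest value on day 3 (1.90 and 0.0610). ADAM9, at 6.78, 5.35 and 12.4, stands next to ADAM32, ADAM18 and ADAM2, which did not exceed 0.0592 on any day.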
